A study of Mus musculus with 24 samples.

Results

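This section covers 10 genes of the activin, GDF and TGF-beta ligand family in mouse cardiomyocytes: the ligand genes Inhba, Inhbb, Gdf15, Tgfb1, Tgfb2, Tgfb3, Bmp4 and Mstn, and the genes of the secreted antagonists Fst and Fstl3. They were chosen by gene name, with measured values of these arrays already known, among them the rise of Inhbb in wild-type cells 16 h after doxorubicin. The values of that comparison are therefore given as a description, without p-values. Where genes past the threshold are counted in it, nothing is read from the count, and the difference between the genotypes' responses at 16 h contains the same arrays. The 10 genes were read by 12 of the 55681 distinct probes, out of 34844 gene names on the array, and 9 of the 10 were tested at each time. Mstn did not pass the filter on dim probes.

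The study measured RNA of isolated cardiomyocytes on 24 one-colour arrays, 3 in each of 8 groups. The mice were labelled as male, 6 weeks old and of mixed 129SvEv/C57BL/6 background. They were either wild type or carried a conditional deletion of Top2b, which encodes topoisomerase II beta, in cardiomyocytes. Each received doxorubicin, an anthracycline that poisons type II topoisomerases, at 25 mg/kg, or PBS, injected into the peritoneum, and hearts were taken 16 h or 72 h later. Cardiomyocytes were isolated on a Langendorff apparatus. The promoter that drives the recombinase, and whether the wild-type mice carry it, are not given in the sources used here. Whether every array came from its own animal is not in the labels, so a p-value here reflects the spread among the samples and may be technical.

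Ligands of this family are secreted dimers. Activins, made of the chains that Inhba and Inhbb encode, and the TGF-betas signal through receptor kinases to SMAD2 and SMAD3, and BMPs signal mainly to SMAD1 and its relatives. Follistatin, the product of Fst, and the related Fstl3 bind activins and keep them from their receptors. Gdf15 is a stress-induced hormone of the same superfamily, and in the heart TGF-beta ligands are known for their part in fibrosis.

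All levels below are log2 processed signals minus the 75th percentile of the same array, so that 0 is the 75th percentile, and they are not comparable between genes. That percentile lay between 146 and 282 signal units, and 42.9% to 52.6% of spots were well above background. The Top2b probe read 4.03 to 4.39 on the wild-type and 2.54 to 3.34 on the Top2b-deleted arrays of 16 h, and 3.25 to 3.65 against 2.13 to 3.08 at 72 h, with no overlap. Genotype was taken from the sample titles. The genotype characteristic of 4 arrays of 16 h, replicate 3 of both PBS groups and replicate 1 of both doxorubicin groups, differed from the title, and the Top2b probe went with the title on each. All 10 cardiomyocyte markers listed (Myh6, Actn2 and others) were well above background on every array, as were the 11 endothelial markers and 9 to 11 of the 11 fibroblast markers, so the RNA also held other cell types. In such bulk RNA, fewer cells of a type and less RNA per cell cannot be told apart.

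Some arrays stood apart from their labels. Ddx3y, a Y-linked gene, was well above background on 7 arrays, and Xist on the other 17, although the labels give male mice throughout. The 7 were all 3 wild-type PBS arrays and replicate 1 of both doxorubicin groups at 16 h, and replicate 4 of wild-type PBS and replicate 3 of Top2b-deleted PBS at 72 h. A probe of Esr1, the estrogen receptor alpha gene, was at 5.04 to 7.10 on every Top2b-deleted array and at background on all 3 wild-type PBS arrays of 16 h. It read 0.60 and 1.05 on wild-type doxorubicin replicates 2 and 3 of 16 h, and 8.41 and 8.58 on wild-type PBS replicates 2 and 3 and 6.62 and -2.06 on wild-type doxorubicin replicates 2 and 3 of 72 h. The arrays of 16 h lay on 2 slides and those of 72 h on the 2 others, and for that reason the times were not tested against each other. At 16 h the Top2b-deleted doxorubicin arrays shared a slide with replicate 3 of Top2b-deleted PBS alone. All other arrays of 16 h lay on the other slide. Slide and treatment therefore largely cannot be told apart in the Top2b-deleted doxorubicin comparison of 16 h. The same holds for the Top2b-deleted part of the difference of responses.

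In PBS-treated cells of 16 h, 5 of the 9 tested genes were higher in the Top2b-deleted than in the wild-type group and 0 were lower. Those higher were Inhba, Gdf15, Fstl3, Tgfb2 and Tgfb3. Over all 18751 genes tested, 12.5% passed the threshold of adjusted p under 0.05 (limma with Benjamini-Hochberg adjustment over all genes) and 6.72% were higher. The groups did not overlap for 8 of the 9 genes, against 48.5% of all genes, and the median difference of the 9 was 2.14, beside -0.01 over all genes. At 72 h Inhba and Fst were higher, 2 of 9, against 2.12% of all 19672 genes past the threshold and 1.05% higher, and 6 of 9 did not overlap, against 19.6%. At both times Fst passed the filter on dim probes only through the Top2b-deleted groups, where it was higher. Its part in these counts therefore supports nothing.

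In the comparison behind the choice, wild-type doxorubicin against PBS at 16 h, 3 of the 9 genes lay past the threshold on the higher side (Inhbb, Bmp4 and Tgfb2) and 1 on the lower (Tgfb1), which describes the choice and supports nothing. Of all genes, 13.6% were higher and 14.3% lower, 27.9% in all, and the groups did not overlap for 5 of the 9 genes, against 36.7% of all genes. In the Top2b-deleted group 0 of 9 passed in limma at 16 h. That was 0% of all genes, and 797 genes had an unadjusted p under 0.05. Its groups still did not overlap for 5 of 9 genes, Inhba, Gdf15, Tgfb2, Fstl3 and Bmp4, all of them lower after doxorubicin, against 17.8% of all genes. Slide and doxorubicin largely go together in this comparison, so the 2 cannot be told apart there. At 72 h the wild-type group had 1 gene higher, Inhbb, against 2.54% of all genes, with 2 of 9 not overlapping against 25.6%, and the Top2b-deleted group had 0 of 9, with 0 not overlapping against 7.09% (426 genes with an unadjusted p under 0.05). The wild-type PBS arrays serve in both the doxorubicin and the genotype comparison of each time, and the Top2b-deleted PBS arrays likewise.

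**Figure D1:**
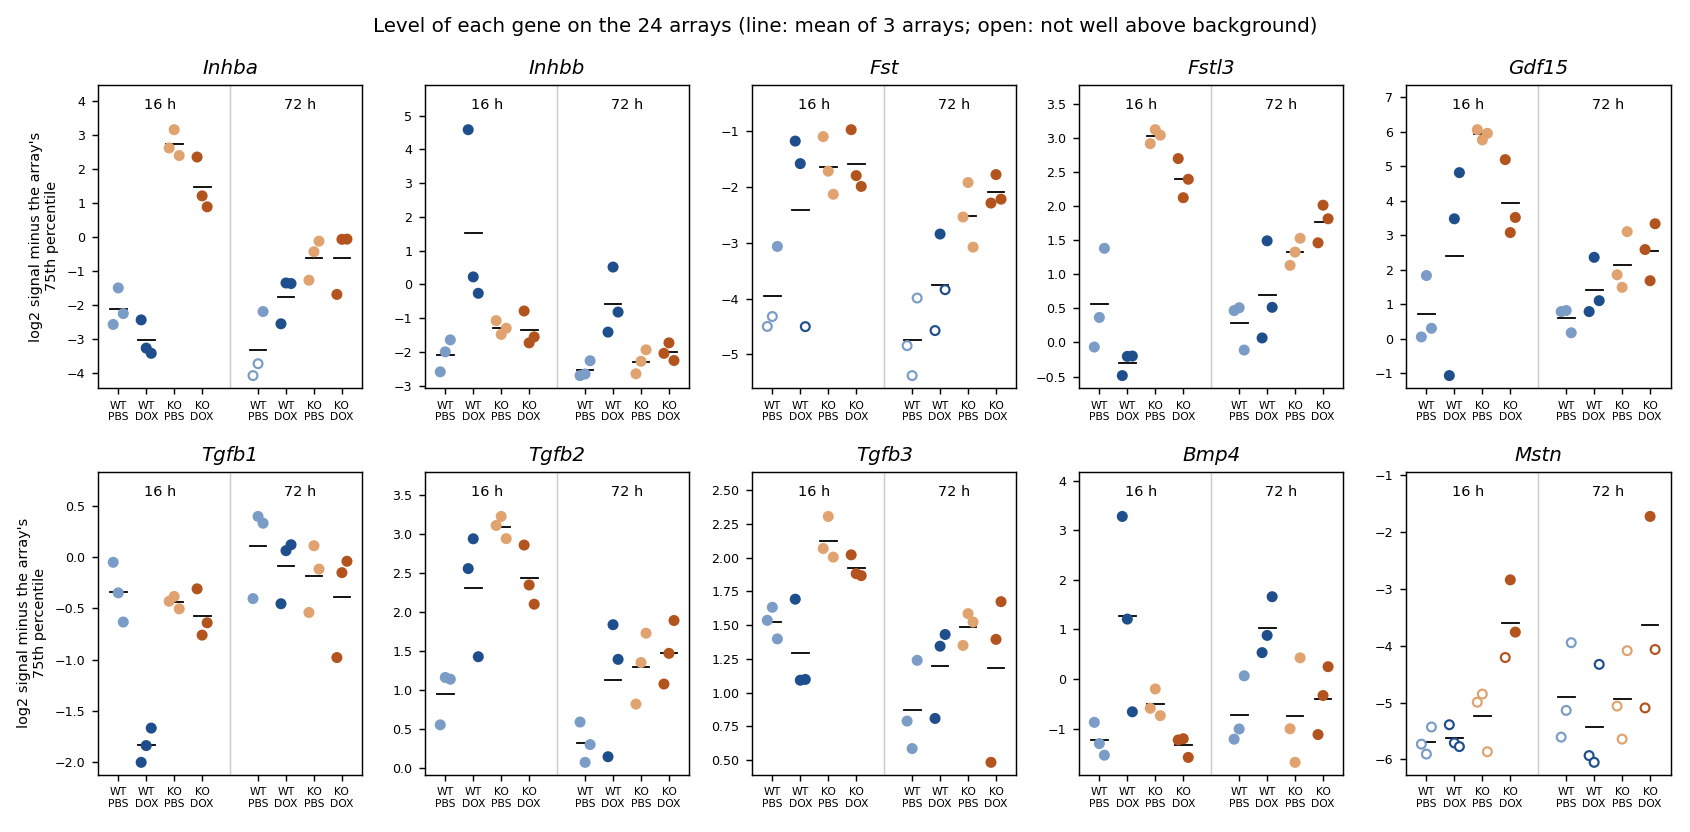
Level of each of the 10 genes on every array (vertical axis, log2 signal minus the 75th percentile of the array), by genotype (WT wild type, KO Top2b-deleted), treatment (DOX doxorubicin) and time, with the mean of 3 arrays as a line and open points where the probe was not well above background. At 16 h every Top2b-deleted array lies above every wild-type array for Inhba and Fstl3, and Tgfb1 is low on the 3 wild-type doxorubicin arrays, at -2.00 to -1.67.

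Inhba, which encodes the chain of activin A, separated the genotypes at 16 h. Its probe, shown because the genotype difference with the smallest adjusted p of the 9 genes rests on it, lies at chr13:16118634-16118693 on the plus strand of mm9.

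Inhba probe: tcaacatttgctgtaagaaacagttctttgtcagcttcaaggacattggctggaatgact

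On the wild-type arrays of 16 h the level of Inhba was -2.56, -1.49 and -2.24 after PBS and -2.43, -3.26 and -3.41 after doxorubicin. On the Top2b-deleted arrays it was 2.63, 3.17 and 2.41 after PBS and 2.36, 1.22 and 0.90 after doxorubicin. In the order of group means, Top2b-deleted PBS came first, then Top2b-deleted doxorubicin, wild-type PBS and wild-type doxorubicin. The first 2 did not overlap, at 2.41 against 2.36, and the last 2 did. The difference between the PBS groups was 4.83 ± 0.42 (log2, SE, n = 3 arrays per group), 28.4-fold (adjusted p = 0.000109, limma). It was 4.99 within the slide that holds both groups, and the call was kept in 23 of 24 alternative settings and lost with genotype taken from the characteristic field (1.73). Doxorubicin against PBS gave -0.93 ± 0.42 in wild-type and -1.24 ± 0.42 in Top2b-deleted cells, the latter with a 95% interval of -2.21 to -0.27, which did not pass once adjusted over all genes.

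At 72 h the wild-type PBS arrays read -4.06, -3.71 and -2.18 for Inhba, with only the last well above background. The wild-type doxorubicin arrays read -2.54, -1.34 and -1.36, and the Top2b-deleted arrays -1.26, -0.42 and -0.11 after PBS and -1.68, -0.06 and -0.05 after doxorubicin. The 2 lowest arrays were wild-type PBS replicates 2 and 3, on which the Esr1 probe was at 8.41 and 8.58. Between the PBS groups the difference was 2.72 ± 0.60, 6.60-fold (adjusted p = 0.045, limma), and 3.05 and 2.07 within the 2 slides. The call was lost in 9 of 12 fits that left out 1 array, that is on leaving out any array but replicate 2 of either doxorubicin group or replicate 4 of wild-type PBS (2.35 to 3.29 over the 12). It was lost also without the wild-type arrays with Esr1 signal (1.58) and with normexp background correction (1.19). The wild-type doxorubicin response of 1.57 ± 0.60 did not pass (adjusted p = 0.145, limma), but did with the replicate number as a block, at the same 1.57 (adjusted p = 0.0185).

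Of the secreted antagonists, Fstl3 followed Inhba. Fstl3 is a glycoprotein that binds activins and myostatin. On the wild-type arrays of 16 h its level was -0.07, 0.37 and 1.38 after PBS and -0.49, -0.20 and -0.20 after doxorubicin. The Top2b-deleted arrays stood at 2.91, 3.12 and 3.04 after PBS and 2.70, 2.12 and 2.39 after doxorubicin, all above the wild-type arrays. The PBS groups differed by 2.46 ± 0.30, 5.52-fold (adjusted p = 0.000984, limma), and by 2.46 within the shared slide. The call was kept in 23 of 24 alternative settings and lost with the genotype characteristic (1.36). At 72 h the PBS groups read 0.47, 0.51 and -0.11 against 1.13, 1.32 and 1.53 and did not overlap, with a difference of 1.04 ± 0.33 that did not pass (adjusted p = 0.169).

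Follistatin, the product of Fst, was close to the background in wild-type cells. At 16 h Fst was well above background on 1 of 3 wild-type PBS arrays (-4.50, -4.32 and -3.07), on 2 of 3 wild-type doxorubicin arrays (-1.19, -1.59 and -4.50) and on all 6 Top2b-deleted arrays. The Top2b-deleted arrays read -1.11, -1.72 and -2.14 after PBS and -0.98, -1.80 and -2.00 after doxorubicin. The PBS groups did not overlap, but their difference of 2.31 ± 0.76 did not pass (adjusted p = 0.0742, limma). Without wild-type doxorubicin replicate 1, or replicate 3, the same difference passed, at 2.31 in both fits.

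At 72 h Fst was well above background on 0 of 3 wild-type PBS arrays (-4.84, -5.38 and -3.99) and on all 3 Top2b-deleted PBS arrays (-2.54, -1.93 and -3.08). It was at least 2.05-fold higher in the latter, a bound that sets their mean against the higher of each wild-type array's lowest detected signal and its own Fst signal (measured difference 2.22 ± 0.47, adjusted p = 0.0384, limma). Fst passed the filter on dim probes only through the Top2b-deleted groups, so its test is a description. The call held in 12 of 25 alternative settings. It was lost on leaving out any array but replicate 4 of either PBS group or replicates 2 and 3 of wild-type doxorubicin (1.90 to 2.59), with normexp (0.40) and without the wild-type arrays with Esr1 signal (1.47).

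Inhbb, which encodes the chain of activin B, behaved unlike Inhba. Its probe lies at chr1:121312160-121312219 on the minus strand of mm9. The wild-type arrays of 16 h read -2.59, -2.00 and -1.64 after PBS and 4.58, 0.22 and -0.26 after doxorubicin. The Top2b-deleted arrays read -1.07, -1.48 and -1.30 after PBS and -0.79, -1.73 and -1.55 after doxorubicin. All 3 wild-type doxorubicin arrays were thus above all others of 16 h, and replicate 1 was far above replicates 2 and 3. The wild-type difference was 3.59 ± 0.99, and 2.06 without replicate 1. The Top2b-deleted difference was -0.07 ± 0.99 with a 95% interval of -2.36 to 2.22, and the difference between the 2 responses, -3.66 ± 1.41, did not pass (adjusted p = 0.116, limma).

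At 72 h Inhbb was -2.70, -2.65 and -2.26 on the wild-type PBS arrays and -1.41, 0.51 and -0.82 on the wild-type doxorubicin arrays. These groups did not overlap, and the difference was 1.97 ± 0.41, 3.91-fold (adjusted p = 0.0414, limma), with 2.23 and 1.44 within the 2 slides. The Top2b-deleted arrays spanned -2.65 to -1.73 over both treatments, with a doxorubicin difference of 0.28 ± 0.41. The wild-type call held in 8 of 25 alternative settings. It was lost in 9 of 12 fits that left out 1 array, all but those without wild-type doxorubicin replicate 2, Top2b-deleted doxorubicin replicate 2 or wild-type PBS replicate 4 (1.42 to 2.39). The difference between the genotypes' responses was -1.69 ± 0.58 (adjusted p = 0.703, limma).

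Bmp4, a bone morphogenetic protein, was spread over arrays much as Inhbb was. Its brighter probe lies at chr14:47003391-47003450 on the minus strand of mm9, and its other probe was not well above background on any of the 24 arrays. The wild-type arrays of 16 h read -0.87, -1.30 and -1.54 after PBS and 3.28, 1.21 and -0.66 after doxorubicin, which do not overlap. The Top2b-deleted arrays read -0.59, -0.20 and -0.74 after PBS and -1.23, -1.20 and -1.58 after doxorubicin, which do not overlap either, in the opposite order. The responses were 2.51 ± 0.73 and -0.83 ± 0.73, and their difference of -3.34 ± 1.03 did not pass (adjusted p = 0.0619, limma). At 72 h Bmp4 again did not overlap between wild-type PBS (-1.21, -1.01 and 0.06) and doxorubicin (0.53, 0.88 and 1.66), with a difference of 1.74 ± 0.57 that did not pass (adjusted p = 0.104). It passed with the slide or the replicate number as a block, at the same 1.74, and within the slide of replicates 2 and 3, at 1.82.

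Gdf15, whose product is a circulating stress hormone, had the largest genotype difference of the 9 genes at 16 h. Its probe lies at chr8:73153293-73153352 on the minus strand of mm9. The Top2b-deleted PBS arrays read 6.05, 5.76 and 5.95, and the wild-type PBS arrays 0.05, 1.83 and 0.30. The difference was 5.19 ± 1.23, 36.6-fold (adjusted p = 0.0223, limma). Within the shared slide it was 5.18, which did not pass there. The wild-type doxorubicin arrays read -1.07, 3.47 and 4.81, so replicate 1 lay below every wild-type PBS array and replicates 2 and 3 above. After doxorubicin the Top2b-deleted arrays read 5.19, 3.07 and 3.51, below those after PBS by 2.00 ± 1.23. That difference did not pass in limma.

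The Gdf15 call was less firm than its size. It held in 14 of 24 alternative settings and was lost on leaving out wild-type PBS replicate 1 or 3 or any Top2b-deleted PBS array (4.86 to 5.75 over the 12 fits). The wild-type doxorubicin arrays, with an SD of 3.08, set much of the pooled error, against 0.15 on the Top2b-deleted PBS arrays. With a term for arrays with Esr1 signal, which at 16 h rests on the contrast of wild-type doxorubicin replicate 1 with replicates 2 and 3, the genotype difference was -0.017. With a term for Ddx3y, which rests on the same contrast in both doxorubicin groups, it was 3.54. At 72 h the PBS groups read 0.78, 0.82 and 0.17 against 1.85, 1.49 and 3.099, with no overlap and a difference of 1.55 ± 0.54 that did not pass (adjusted p = 0.222).

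**Figure D2:**
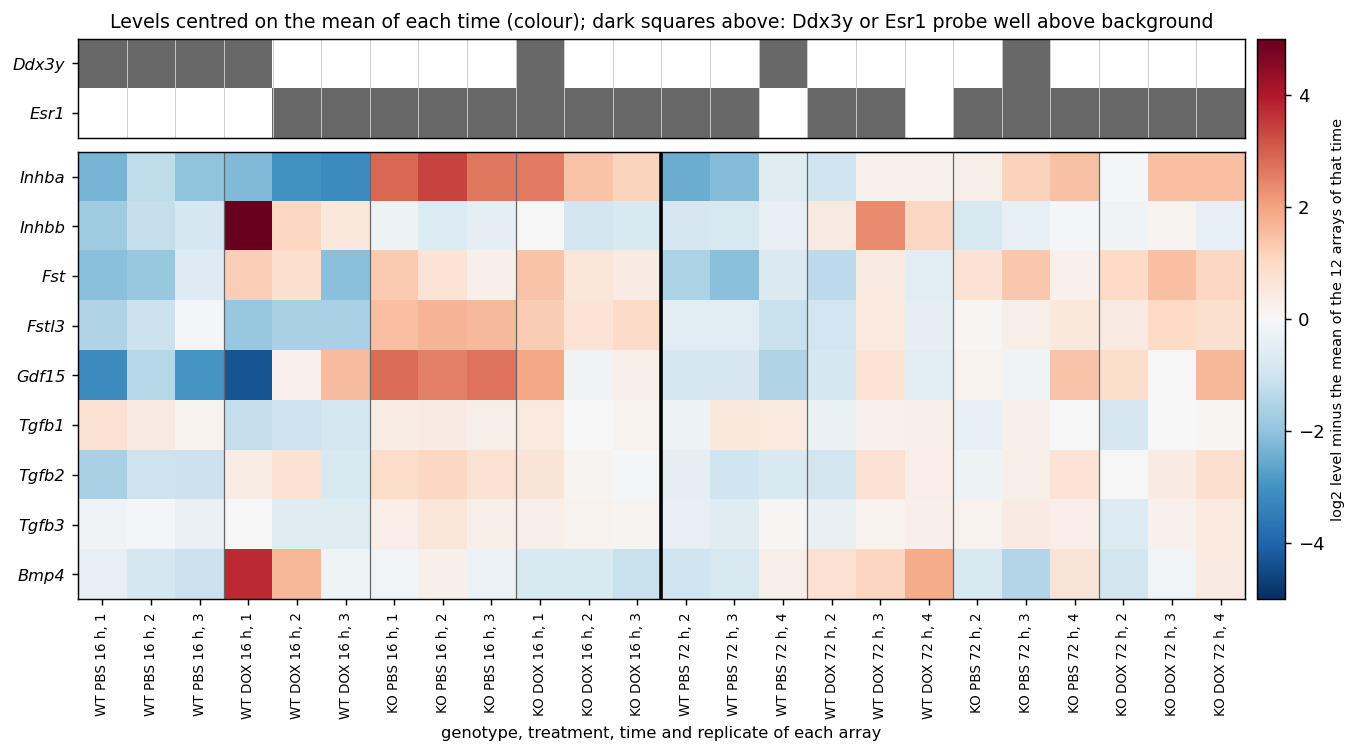
Level of the 9 tested genes on each array as colour, after subtracting the mean of the 12 arrays of the same time (log2), with arrays in columns by genotype, treatment, time and replicate, and dark squares above where the Ddx3y or the Esr1 probe was well above background. Wild-type doxorubicin replicate 1 of 16 h stands out with Inhbb at 4.58 and Gdf15 at -1.07 before centring.

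The 3 wild-type doxorubicin arrays of 16 h differed among themselves in the same way for several genes. Replicate 1, with Ddx3y and without Esr1 signal, had the highest Inhbb and Bmp4 and the lowest Gdf15. Replicates 2 and 3, with Esr1 and Xist signal, had Gdf15 above every wild-type PBS array. The wild-type PBS arrays of 16 h all carried Ddx3y and the Top2b-deleted PBS arrays did not, so for that genotype comparison the 2 cannot be told apart within PBS. The same holds for Esr1 signal, found on 0 of 3 wild-type and 3 of 3 Top2b-deleted PBS arrays of 16 h. With a term for Ddx3y, the genotype difference was past the threshold for Inhba, Fstl3, Tgfb2, Tgfb3, Fst and Inhbb. At 16 h that term rests on replicate 1 against replicates 2 and 3 of the 2 doxorubicin groups. The fit therefore cannot tell Ddx3y from genotype within PBS, and nothing is read from it. Without the term Fst and Inhbb did not pass, Inhbb at 0.79 ± 0.99 (adjusted p = 0.65, limma). The part of Ddx3y in the results, and that of Esr1 signal, was not tested beyond these fits.

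Among the TGF-beta ligands, Tgfb1 and Tgfb2 moved in opposite directions in wild-type cells 16 h after doxorubicin, and their probes are shown because the genes are close relatives. The Tgfb1 probe lies at chr7:26489877-26489936 on the plus strand and the brighter Tgfb2 probe at chr1:188449333-188449392 on the minus strand of mm9. Placed side by side without a gap, they share 28 of 41 aligned bases, 68.3%, which are in capitals.

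Tgfb1 probe: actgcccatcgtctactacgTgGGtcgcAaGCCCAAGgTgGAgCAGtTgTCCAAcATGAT

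Tgfb2 probe: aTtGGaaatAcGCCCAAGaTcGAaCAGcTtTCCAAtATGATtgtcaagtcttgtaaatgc

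Tgfb1, read by 10 spots per array, stood at -0.05, -0.35 and -0.63 on the wild-type PBS arrays and at -2.00, -1.84 and -1.67 on the wild-type doxorubicin arrays of 16 h. On the Top2b-deleted arrays it was -0.43, -0.38 and -0.50 after PBS and -0.31, -0.76 and -0.64 after doxorubicin. The 3 wild-type doxorubicin arrays were below all others and close to one another. The wild-type difference was -1.49 ± 0.17 and the Top2b-deleted difference -0.13 ± 0.17, with a 95% interval of -0.52 to 0.26. The difference between the responses, Top2b-deleted minus wild type, was 1.36 ± 0.24 (adjusted p = 0.00751, limma), which passed in all 12 fits that left out 1 array and in 22 of 24 alternative settings. It was lost with the slide as a block (1.43) and with the genotype characteristic (0.32). The difference of responses contains the wild-type comparison behind the choice of genes, so its p-value is a description. In this comparison 11.5% of all genes passed, and Tgfb1 and Tgfb2 were the 2 of 9 members. At 72 h Tgfb1 spanned -0.98 to 0.40 over the 12 arrays, and the wild-type doxorubicin difference was -0.20 ± 0.31.

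Tgfb2 was higher in both contrasts with wild-type PBS cells at 16 h. The wild-type arrays read 0.56, 1.16 and 1.14 after PBS and 2.56, 2.94 and 1.43 after doxorubicin. The Top2b-deleted arrays read 3.11, 3.23 and 2.94 after PBS and 2.86, 2.35 and 2.10 after doxorubicin. The wild-type PBS arrays were the lowest 3, the Top2b-deleted PBS arrays were at the top, level with wild-type doxorubicin replicate 2, and the doxorubicin groups overlapped each other. The genotype difference was 2.14 ± 0.35, 4.40-fold (adjusted p = 0.00409, limma), kept in 23 of 24 alternative settings and lost with the genotype characteristic (0.94).

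The wild-type doxorubicin difference of Tgfb2 was 1.35 ± 0.35, the Top2b-deleted one was -0.66 ± 0.35, and the difference between them was -2.01 ± 0.50 (adjusted p = 0.028, limma). The call on the difference of responses was lost in 9 of 12 fits that left out 1 array, all but those without wild-type doxorubicin replicate 1 or 3 or Top2b-deleted doxorubicin replicate 1 (-2.45 to -1.70). It was also lost with the slide as a block (-1.86). Here too the difference of responses contains the comparison behind the choice, and its p-value is a description. A second Tgfb2 probe gave a wild-type doxorubicin difference of 0.92 ± 0.42, which did not pass. Its wild-type groups overlapped, at -0.99 to -0.57 after PBS and -0.61 to 1.33 after doxorubicin. The same probe gave a genotype difference of 1.77 ± 0.42 (adjusted p = 0.0229, limma). Its difference of responses of -1.58 ± 0.60 did not pass (adjusted p = 0.111, limma). At 72 h the PBS groups of Tgfb2 read 0.59, 0.08 and 0.31 against 0.82, 1.36 and 1.73, without overlap, and the difference of 0.98 ± 0.41 did not pass (adjusted p = 0.334).

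Tgfb3 varied least of the ligands at 16 h. Its wild-type levels were 1.54, 1.63 and 1.40 after PBS and 1.69, 1.09 and 1.10 after doxorubicin, and its Top2b-deleted levels were 2.07, 2.31 and 2.00 and then 2.02, 1.88 and 1.87. The genotype difference was 0.60 ± 0.17, 1.52-fold (adjusted p = 0.0414, limma). It passed in 9 of 24 alternative settings, and was lost on leaving out any array but the 3 of wild-type doxorubicin (0.51 to 0.66). At 72 h the same difference was 0.61 ± 0.30 (adjusted p = 0.454).

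Mstn, the gene of the muscle growth inhibitor myostatin, was not tested. It was well above background on 2 of 3 Top2b-deleted doxorubicin arrays of 16 h (-2.84 and -3.76, with the other at -4.21) and on 1 of 3 at 72 h (-1.72). On the other 21 arrays it was not well above background.

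At 72 h in the difference between the genotypes' doxorubicin responses, 0 of the 9 genes passed in limma, as did 0% of all genes, of which 1349 had an unadjusted p under 0.05. In that comparison the member values ran from -1.69 for Inhbb to 0.03 for Fstl3.

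**Figure D3:**
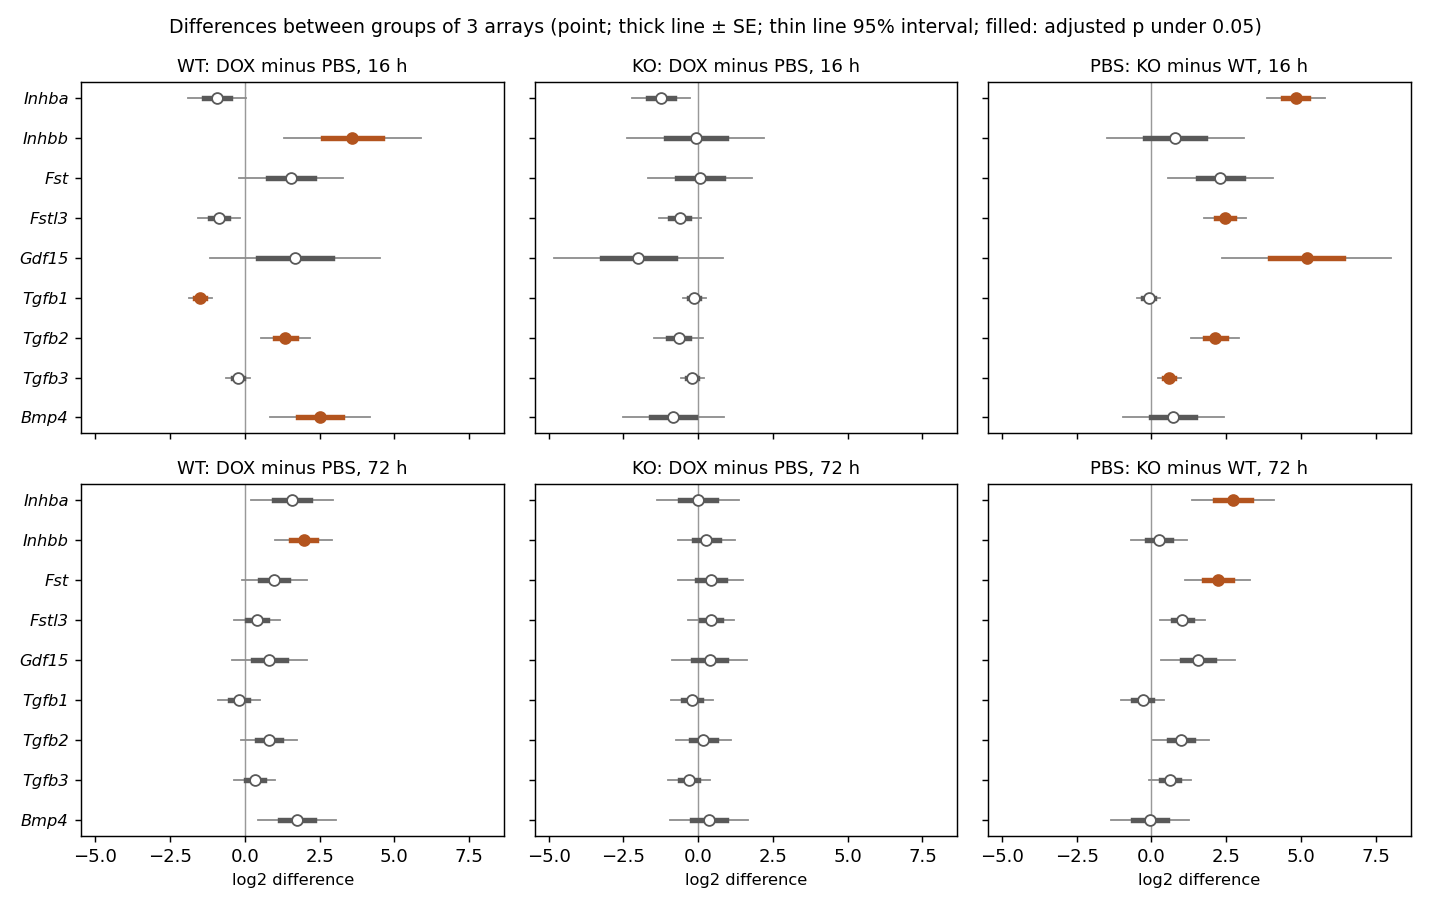
Difference between groups of 3 arrays for the 9 tested genes (horizontal axis, log2), for doxorubicin against PBS in each genotype and for Top2b-deleted against wild type in PBS, at 16 h (top) and 72 h (bottom), with SE as thick and 95% intervals as thin lines and filled points past the threshold. The upper left panel is the comparison behind the choice of genes and is a description. Filled points are 4, 0 and 5 at 16 h and 1, 0 and 2 at 72 h, from left to right.

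Across the 24 arrays, with each time centred on its mean, Inhba and Fstl3 had a Pearson correlation of 0.91, Inhba and Tgfb3 one of 0.84, Inhbb and Bmp4 one of 0.85, and Tgfb2 and Fst one of 0.82. Inhba and Inhbb had one of -0.19, and Inhbb and Tgfb1 one of -0.58. These are descriptions over arrays that share slides and groups. Among 18373 genes kept at both times, those closest to Inhba were Mmp23 (0.97), Panx1 (0.96) and Serpinb1a (0.96), and those closest to Inhbb were Sat1 (0.95), Gcnt2 (0.93) and Atoh8 (0.93). Gdf15 was most like Hexa (0.91), Tgfb1 most like Tbxa2r (0.86), Tgfb2 most like Nrip3 (0.92), Tgfb3 most like Tmem176a (0.92), Fst most like Mobkl1a (0.92), Fstl3 most like Tln1 (0.95) and Bmp4 most like Gda (0.93).

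The 250 bases before the annotated start of Inhba and Fstl3, which moved together, and of Gdf15, with the widest genotype gap, are given from RefSeq (GRCm38.p6). RefSeq windows were matched by symbol for 8 of the 10 genes, and for Gdf15 the outermost of 2 starts was taken. Capitals mark matches, on either strand, to CAGAC, the core of a SMAD-binding element, which 42.2% of 32851 such windows hold. The windows lie at chr13:16011601-16011850 (plus strand), chr10:79777024-79777273 (plus strand) and chr8:70632457-70632706 (minus strand).

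Inhba upstream: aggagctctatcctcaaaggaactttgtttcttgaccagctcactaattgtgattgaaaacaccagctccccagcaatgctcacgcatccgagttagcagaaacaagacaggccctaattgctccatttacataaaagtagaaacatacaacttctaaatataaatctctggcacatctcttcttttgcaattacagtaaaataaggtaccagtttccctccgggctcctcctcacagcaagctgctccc

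Fstl3 upstream: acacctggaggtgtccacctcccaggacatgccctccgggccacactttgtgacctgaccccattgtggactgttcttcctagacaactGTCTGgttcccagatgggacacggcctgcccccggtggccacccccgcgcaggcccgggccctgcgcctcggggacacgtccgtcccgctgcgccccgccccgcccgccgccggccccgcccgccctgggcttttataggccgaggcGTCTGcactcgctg

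Gdf15 upstream: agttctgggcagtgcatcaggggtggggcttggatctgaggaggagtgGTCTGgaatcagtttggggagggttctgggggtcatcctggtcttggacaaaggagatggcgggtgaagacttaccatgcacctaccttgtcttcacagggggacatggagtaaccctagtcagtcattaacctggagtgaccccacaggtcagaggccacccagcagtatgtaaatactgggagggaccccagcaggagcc

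Fstl3 held 2 matches, Gdf15 1 and Inhba 0. The AP-1 motif TGANTCA, held by 6.75% of windows, the composite C/EBP-ATF motif TGATGNAA, held by 3.45%, and the TEAD motif CATTCC, held by 12.6%, had 0 matches in these 3 windows and in those of Inhbb and Bmp4. A match is a string of letters, not a site, and the absence of one speaks only of this window.

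The other genes of the pathway were read from 5 lists, and the target genes among them differed most often. The lists were chosen with earlier results of these data known, so their counts beside all genes are a description. Of the common TGF-beta and BMP target genes, 10 of 23 tested were higher and 1 was lower in Top2b-deleted than in wild-type PBS cells at 16 h, with a median difference of 1.16. Over all genes 6.72% were higher and 5.74% lower, with a median of -0.01. Among them were Ctgf, a matricellular growth factor (2.91 ± 0.42, adjusted p = 0.00217), and Postn, the matrix protein periostin (2.81 ± 0.42, adjusted p = 0.00264). In wild-type cells 16 h after doxorubicin 9 of the 23 targets rose and 7 fell, where 13.6% of all genes rose and 14.3% fell. The rises included Timp3, a metalloproteinase inhibitor (1.74 ± 0.19), and Cdkn2b, a cell cycle inhibitor (2.52 ± 0.31, well above background on 1 of 3 PBS arrays), and the falls Col3a1, a fibrillar collagen (-2.75 ± 0.32). At 72 h Ctgf alone of the target genes passed, in wild-type doxorubicin (2.00 ± 0.41, adjusted p = 0.0388) and in Top2b-deleted PBS cells (2.39 ± 0.41, adjusted p = 0.0133).

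The counts that follow stand beside the same shares of all genes, and those of the receptors, SMADs and other ligands are small enough that nothing is read from them. Of the receptors, 2 of 13 were higher and 1 lower in each of these 2 comparisons of 16 h. Tgfbr2, the type II TGF-beta receptor, was higher in Top2b-deleted PBS cells (1.33 ± 0.21, adjusted p = 0.0033) and after doxorubicin in wild-type cells (1.10 ± 0.21). Tgfbr1, the type I receptor, was higher in Top2b-deleted PBS cells (1.22 ± 0.26, adjusted p = 0.016). Of 21 extracellular antagonists and latency proteins, 0 rose and 5 fell in wild-type cells after doxorubicin. Itgb6, a chain of an integrin that releases latent TGF-beta, was among them (-5.47 ± 0.43) and was well above background on 1 of 3 doxorubicin arrays. Ltbp1, which anchors latent TGF-beta, fell too (-0.90 ± 0.19) and was also lower in Top2b-deleted PBS cells (-1.04 ± 0.19, adjusted p = 0.00662). Of 17 SMADs and their regulators, 1 rose and 1 fell after doxorubicin in wild-type cells, and 2 were higher in Top2b-deleted PBS cells, among them Smad2 (0.59 ± 0.13, adjusted p = 0.0151). Of 9 other ligands tested, 2 rose and 2 fell after doxorubicin in wild-type cells, and 1 was higher and 2 lower in Top2b-deleted PBS cells, Bmp7 among the lower ones (-1.62 ± 0.20, adjusted p = 0.000968). After doxorubicin in wild-type cells at 72 h, 0 of 12 other ligands tested were higher and 1 was lower, where 1.61% of all genes were lower. That ligand was Bmp7 (-1.515 ± 0.27, adjusted p = 0.0304, limma). In the Top2b-deleted cells 0 genes of these lists passed after doxorubicin at either time.

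**Figure D4:**
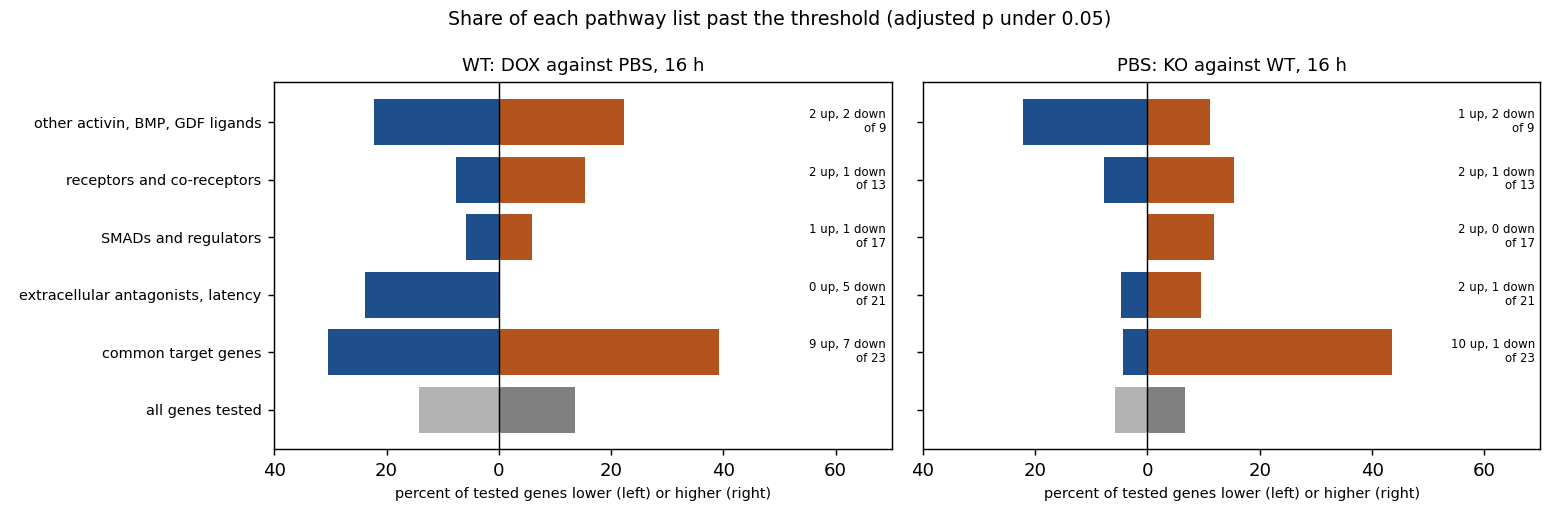
Percent of the tested genes of each pathway list that were lower (left bars) or higher (right bars) past the threshold at 16 h, after doxorubicin in wild-type cells and between the genotypes (Top2b-deleted against wild type) in PBS, with all genes tested in grey. The target genes had 9 up and 7 down of 23 in the first and 10 up and 1 down of 23 in the second.

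Markers of other cell types moved in the same comparisons, where the shares of all genes higher and lower were those given above at 16 h and 0.93% and 1.61% after doxorubicin in wild-type cells at 72 h. Of 10 fibroblast markers tested, 5 were higher in Top2b-deleted PBS cells at 16 h (Mfap5 at 1.84 ± 0.30, Col1a1 at 1.68 ± 0.38). Postn, Col1a1, Col1a2 and Col3a1 stand on both the fibroblast and the target list. Acta2 and Tagln stand on both the smooth muscle and pericyte list and the target list. The summed level of the fibroblast markers was 5.81 to 6.87 against 4.88 to 5.45 on the wild-type PBS arrays. In wild-type cells after doxorubicin 4 of these 10 and 5 of 10 smooth muscle and pericyte markers were lower at 16 h, the latter with a summed level of 5.66 to 5.81 against 6.67 to 7.01. Of the 9 neutrophil markers, 3 of 4 tested at 16 h and 3 of 6 at 72 h rose there. S100a8 was at least 3.42-fold higher at 16 h and at least 12.5-fold at 72 h. S100a8, S100a9 and Retnlg passed the filter on dim probes only through doxorubicin groups, so their part in these counts supports nothing. The summed level of the neutrophil markers, a linear sum in which the brightest weigh most, overlapped. It was 6.34 to 6.37 after PBS and 6.06 to 6.64 after doxorubicin at 16 h. At 72 h it was 6.71 to 7.95 and 7.03 to 7.85. Their mean log2 level did not overlap, at -3.76 to -3.21 after PBS and -2.87 to -1.85 after doxorubicin at 16 h. At 72 h that mean was -3.56 to -3.12 and -1.98 to -0.78. It includes markers near the background, and S100a8, S100a9 and Retnlg. Of 11 endothelial markers, 0 were higher and 2 lower at 16 h, both after doxorubicin in wild-type cells and in Top2b-deleted PBS cells. At 72 h 0 passed after doxorubicin in wild-type cells, with a median of 1.49 beside -0.07 over all genes. On replicates 2, 3 and 4 of 72 h their summed level was 6.26, 6.34 and 7.96 after PBS and 7.53, 8.47 and 8.21 after doxorubicin in wild-type cells. The summed level of the cardiomyocyte markers was 12.3 to 13.2 over the 24 arrays. Nppa, the gene of atrial natriuretic peptide, was the only atrial marker of 6 to pass in the genotype comparisons, higher by 2.44 ± 0.38 at 16 h and 3.72 ± 0.59 at 72 h in Top2b-deleted cells. The other atrial markers had differences below 0 at 16 h, none past the threshold, and the median of the 6 was -1.41 at 16 h and 0.46 at 72 h. The part of these markers in the values of the 10 genes was not tested.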

How the data were processed

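RNA of 24 cardiomyocyte samples, 8 groups of 3, was measured on one-colour Agilent arrays. Per the file headers, the deposited intensity of each spot (processed signal) was background-subtracted and detrended by Agilent Feature Extraction 10.7.3.1, with flags for spots well above background, and probe positions are those of mm9. The deposited value table holds a linear ratio, each array's processed signal over its median (every column's median is 1), checked against the scanner intensity and used as an alternative. Control and outlier spots were left out, log2 intensity minus the array's 75th percentile was taken, spots of a probe were averaged, and for each gene the brightest probe was tested among those that every one of the 3 arrays of some group read well above background, 18751 genes at 16 h and 19672 at 72 h. Each time was fitted on its 12 arrays with limma 3.58.1 in R 4.3.3 (group means, eBayes, Benjamini-Hochberg over all genes, threshold 0.05), and the fit was tested on simulated data. The 95% intervals use the fit's SE and 8 residual degrees of freedom. Genotype came from the titles. The 10 genes and all lists were chosen with earlier results of these data known. Genes named were every member, up to 3 genes with the smallest adjusted p past the threshold for each pathway list and comparison and the 3 genes most correlated with each member. Alternatives were normexp, quantile normalization, the value table, no filter, the mean of probes, slide and replicate blocks, Ddx3y and Esr1 terms, the genotype characteristic, 1 fit of all arrays and leaving out arrays. Depth does not apply to arrays, and 3 arrays a group limit the precision. The slide and scan were the same grouping. A gene that this rule would name is not reported here.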

Additional observations from a re-analysis of the deposited data

Results flagged for a closer look

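The difference between the genotypes' doxorubicin responses at 16 h passed the threshold for 2 genes. It contains the wild-type comparison behind the choice of genes, so its p-values are a description. The 2 calls were lost with the slide as a block. For Tgfb1 the difference, Top2b-deleted minus wild type, was 1.36 (adjusted p = 0.00751, limma), and for Tgfb2 it was -2.01 (adjusted p = 0.028, limma), a call lost in 9 of 12 fits that left out 1 array. For Bmp4 every wild-type doxorubicin array lay above every wild-type PBS array while every Top2b-deleted doxorubicin array lay below every Top2b-deleted PBS array. The difference of those responses was -3.34 and did not pass (adjusted p = 0.0619, limma). Mstn, which was not tested, was well above background on 2 arrays of the Top2b-deleted doxorubicin group at 16 h and on 1 at 72 h, against 0 wild-type PBS arrays.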

How the results depend on the processing

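Of 1773 values of single genes under the alternatives, 1564 kept their direction and their side of the threshold, 100 lost the call, 36 gained one, 72 changed sign without passing in either fit, and 1 that had passed changed sign: the Gdf15 genotype difference at 16 h, -0.017 with a term for Esr1 signal. The 72 include the wild-type doxorubicin difference of Gdf15 at 16 h (-1.80 with that term) and, with the genotype characteristic, the differences of responses of Inhbb (0.15) and Bmp4 (0.20) and the Top2b-deleted difference of Bmp4 (0.94) at 16 h. For the members past the threshold after doxorubicin in wild-type cells at 16 h, 4 in all, leaving out 1 array gave 2 to 6, and the slide with all these arrays alone gave 2. For genotype in PBS at 16 h, 5 in all, the range was 3 to 6, with 3 for the slide as a block, 3 within slide 1, 6 with a Ddx3y term and 7 with an Esr1 term. For the difference of responses at 16 h, 2 in all, the range was 1 to 5. It was 1 with no filter, 1 with the mean of the kept probes, 0 with the slide as a block, 4 with a Ddx3y term, 4 with an Esr1 term, 5 without the wild-type doxorubicin arrays with Esr1 signal and 4 with all 24 arrays in one fit. For wild-type doxorubicin at 72 h, 1 in all, the range was 0 to 2, with 2 for the slide as a block and 0 for normexp, quantile normalization, no filter, a Ddx3y term, leaving out the Ddx3y arrays, leaving out the wild-type arrays with Esr1 signal, and all 24 arrays in one fit. For genotype at 72 h, 2 in all, the range was 0 to 2, with 1 for all 24 arrays in one fit and 0 for normexp, no filter, leaving out the Ddx3y arrays and leaving out the wild-type arrays with Esr1 signal. With genotype from the characteristic field, which changes the label of 4 arrays, all 3 counts at 16 h were 0. The other 3 comparisons stayed at 0 under the alternatives run. The causes were not tested.

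The correlations given here are between arrays of different groups, after the mean of its group was subtracted from each array, over all genes tested. In these deviations, same-numbered arrays correlated at -0.12 to 0.29 at 16 h and at 0.00 to 0.73 at 72 h, and different-numbered arrays at -0.27 to 0.26 and -0.53 to 0.37. At 72 h 16 of 18 same-numbered pairs were over 0.1, against 7 of 36 others, and slide follows the number there (replicate 4 alone on its slide). Since not every pair was over 0.1, the numbers were not taken as pairs. With the replicate block the counts of members were 4, 4 and 3 for the 3 comparisons of 16 h and 3 and 2 at 72 h, where Inhba and Bmp4 joined Inhbb after doxorubicin in wild-type cells, and over all genes the block called 3127 in place of 499 for wild-type doxorubicin at 72 h and 893 in place of 418 for genotype at 72 h. Many other counts over all genes moved by over 1.5 times. For genotype at 16 h, 2337 became 961 to 3849 on leaving out 1 array, 1264 with no filter, 1214 with the slide as a block and 771 within slide 1. For the difference of responses at 16 h, 2159 became 1012 to 4746 on leaving out 1 array, 375 with the slide as a block, 976 with no filter, 4676 with an Esr1 term and 6211 without the wild-type doxorubicin arrays with Esr1 signal. For wild-type doxorubicin at 72 h, 499 became 1 to 1486 on leaving out 1 array, 22 with no filter, 2558 with the slide as a block, 11 with a Ddx3y term, 958 with the value table and 2345 with all arrays in one fit. With 3 arrays a group and levels of Fst, Inhba at 72 h and Mstn near the background, precision is limited by the number of arrays and by signal over background. The fits with an Esr1 term and those without Esr1 or Ddx3y arrays were chosen after seeing the data. Leaving out the wild-type arrays with Esr1 signal leaves 1 array in each wild-type group of 72 h, and at 16 h only wild-type doxorubicin replicate 1, the array with Inhbb at 4.58. Such a lone array is assumed to vary like the other groups.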
